A study of Mus musculus with 12 samples.

Results

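The genes of lipid storage and release in adipocytes were followed in inguinal white adipose tissue (iWAT), a subcutaneous fat depot that takes on thermogenic features in the cold. The genes were chosen by name for their roles at the lipid droplet, and all 10 of 10 (Pnpla2, Abhd5, G0s2, Lipe, Mgll, Plin1, Plin2, Plin4, Plin5 and Cidec) were found among the 14159 genes with deposited values. Messenger RNA of the whole depot was sequenced from Atf4WT mice, which carry floxed Atf4 alleles (Atf4 fl/fl) and no Cre, and from Atf4AKO littermates, which carry the same alleles together with Adipoq-Cre. Both genotypes were on a C57BL/6 background and were housed at room temperature (RT) or exposed to cold for 24 h, with 3 biological replicates numbered 0, 1 and 2 in each of the 4 groups. Adipoq-Cre acts in adipocytes of every fat depot, so other cells of iWAT keep Atf4, and all 4 groups carry the floxed alleles. The age and sex of these mice are not given in the sources used here, nor is it stated whether animals were pooled in a library.

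Triglyceride in the droplet is cleaved in steps. ATGL, encoded by Pnpla2, removes the first fatty acid and is switched on by its coactivator CGI-58 (Abhd5) and held back by the small inhibitor encoded by G0s2; hormone-sensitive lipase (Lipe) then cleaves diglyceride and monoglyceride lipase (Mgll) the last ester. Perilipins coat the droplet: PLIN1 binds CGI-58 in resting adipocytes and releases it when protein kinase A is active, PLIN2 coats the small droplets of most cells, PLIN4 is a coat protein of white adipocytes, and PLIN5 is abundant in oxidative tissues, where it links droplets to mitochondria. CIDEC, also called FSP27, lets droplets fuse into the large droplet of a white adipocyte. Noradrenaline released in the cold activates this pathway largely through protein phosphorylation, which RNA does not show.

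The libraries held 25719476 to 29105147 reads on listed genes, and the members had 507 to 132647 reads in a library, so counting error was small beside the spread between replicates. Values below are normalized counts, that is reads divided by the size factor of the library. Atf4 itself had 4815 ± 791 normalized counts (SD, n = 3) in Atf4WT and 1568 ± 87.9 in Atf4AKO iWAT at RT, and 6970 ± 1054 and 1182 ± 395 after cold exposure, without overlap between the genotypes. All 12 of 12 adipocyte markers were listed, with a mean log2 level of 15.88 to 16.57 in the 12 libraries and Car3 as the most abundant. Other cell types differed between libraries. The lymphocyte score (mean log2 level of the B and T cell markers) was 7.07 to 9.60 in cold-exposed Atf4WT iWAT and 3.34 to 4.99 in cold-exposed Atf4AKO iWAT, against 3.75 to 6.94 at RT. Summed skeletal muscle markers were at 117601 normalized counts in Atf4WT replicate 2 at RT, 39967 in cold-exposed Atf4WT replicate 0 and 4233 in cold-exposed Atf4AKO replicate 1, and at 107 to 858 in the other 9 libraries. Summed fibroblast markers were at 115143 to 173305 at RT and at 29959 to 80525 after cold exposure. In whole tissue, fewer cells of a type and less RNA per cell cannot be told apart.

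Cold exposure raised the expression of Plin5, Plin2 and Abhd5 in both genotypes, by 4.75-fold, 2.57-fold and 1.58-fold in Atf4WT iWAT and by 4.68-fold, 2.22-fold and 1.47-fold in Atf4AKO iWAT. Plin4 was lower in cold-exposed Atf4WT iWAT, at 0.612 of its RT level. Called here means a Benjamini-Hochberg adjusted p-value under 0.05 over the 13404 genes tested with limma. In Atf4WT iWAT 3 of the 10 genes were called higher and 1 lower, while 17.0% of all genes tested were called higher and 14.9% lower (31.9% in either direction). In Atf4AKO iWAT 3 were called higher and none lower, against 14.8% and 11.0% of all genes. The median log2 fold change of the 10 genes was 0.16 in Atf4WT and 0.34 in Atf4AKO iWAT, beside a median over all genes of 0.00 and -0.03. By the DEG rule of the study (fold change over 1.5 and unadjusted p under 0.05), 3 genes were higher and 1 was lower in Atf4WT iWAT, and 2 were higher in Atf4AKO iWAT, since Abhd5 fell just short of the fold change there. This rule took in 21.2% and 17.2% of all genes. An unadjusted p-value under 0.05 was found for 4 members in each genotype, and for 43.4% and 39.1% of all genes.

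**Figure D1:**
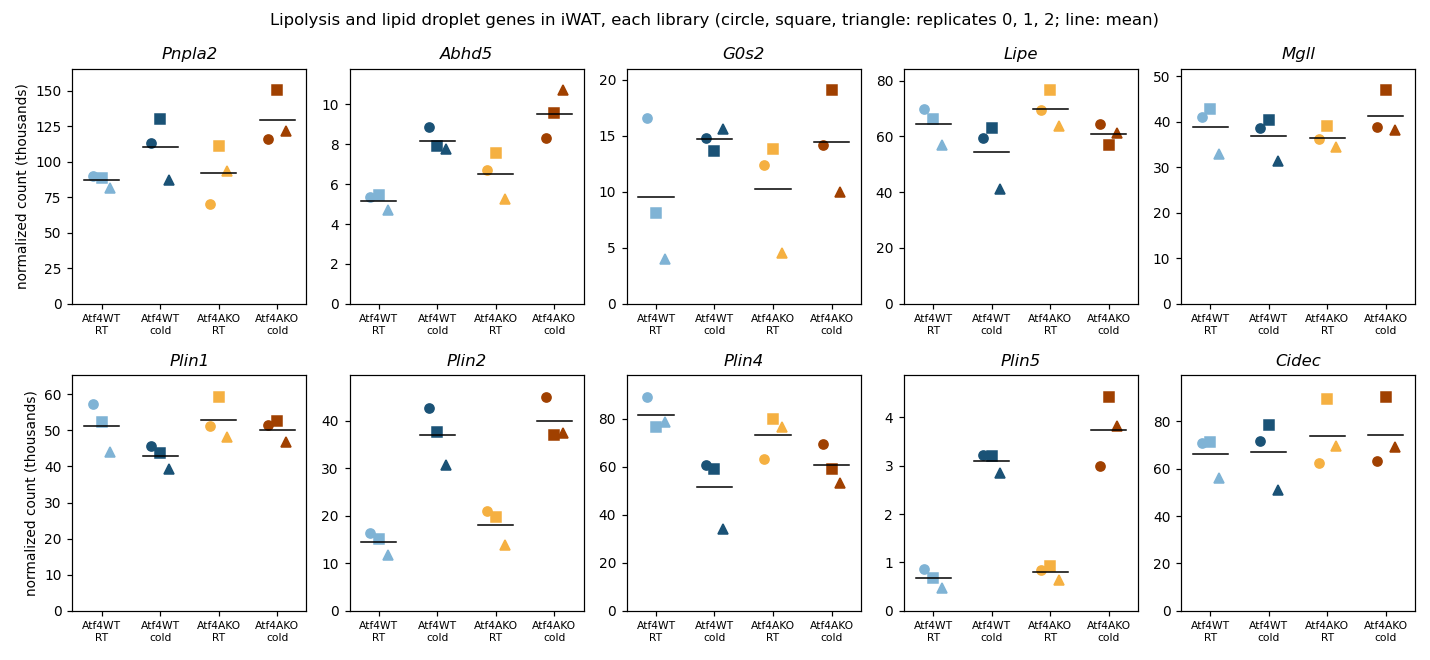
Normalized counts (axes divided by 1000, linear and starting at 0) of the 10 genes in each of the 12 libraries, with Atf4WT in blue and Atf4AKO in orange, lighter at RT and darker after cold exposure; circles, squares and triangles are replicates 0, 1 and 2, and the line is the mean of 3. Plin5 and Plin2 separate the cold-exposed libraries from the RT libraries in both genotypes, while G0s2 spreads from 4041 to 16602 among the Atf4WT libraries at RT.

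Of the lipases, Pnpla2 (chr7:141455198-141460743, plus strand, GRCm38) was the most abundant member. It had 90210, 88391 and 81737 normalized counts in replicates 0, 1 and 2 of Atf4WT iWAT at RT and 112887, 129931 and 87258 after cold exposure. The Atf4AKO libraries had 70420, 111186 and 93410 at RT and 115819, 150387 and 121839 after cold exposure. The cold-exposed Atf4AKO libraries were all above the RT libraries, whereas in Atf4WT iWAT cold-exposed replicate 2 lay within the RT range. The log2 fold change was 0.32 (95% confidence interval -0.14 to 0.79, adjusted p = 0.267) in Atf4WT and 0.51 (0.04 to 0.98, adjusted p = 0.099) in Atf4AKO iWAT, so Pnpla2 did not pass the threshold in either. With DESeq2 on the recovered reads, the change in Atf4AKO iWAT passed (log2 fold change 0.50, adjusted p = 0.0294).

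Abhd5 (chr9:122351608-122381524, plus strand) had 5357, 5451 and 4720 normalized counts in Atf4WT iWAT at RT and 8858, 7902 and 7745 after cold exposure. Among the Atf4AKO libraries, those at RT had 6701, 7550 and 5268 and the cold-exposed 8303, 9563 and 10730. In each genotype every cold-exposed library was above every RT library. The log2 fold change was 0.66 ± 0.14 (SE, adjusted p = 0.00452) in Atf4WT and 0.56 ± 0.14 (adjusted p = 0.0122) in Atf4AKO iWAT, and leaving out any 1 library gave 0.59 to 0.70 and 0.41 to 0.67, all past the threshold.

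G0s2 (chr1:193272161-193273217, minus strand) was the most variable member at RT. Its normalized counts were 16602, 8096 and 4041 in Atf4WT iWAT at RT, a 4.11-fold range, and 14822, 13638 and 15567 after cold exposure. In Atf4AKO iWAT they were 12419, 13787 and 4525 at RT and 14141, 19098 and 10025 after cold exposure. Replicate 2 was the lowest RT library in both genotypes, and the RT and cold-exposed libraries overlapped in both. The coefficient of variation was 66.9% at RT and 6.63% after cold exposure in Atf4WT iWAT and 48.8% and 31.5% in Atf4AKO iWAT, a difference in spread that was not tested. The log2 fold change of 0.84 in Atf4WT iWAT (95% confidence interval -0.25 to 1.94, adjusted p = 0.219) rested on single libraries, as it was 1.36 without RT replicate 0 and 0.34 without RT replicate 2. The Atf4AKO value was 0.60 (-0.49 to 1.70, adjusted p = 0.398) and 0.09 without RT replicate 2.

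The ratio of the inhibitor to its target was computed within each library, where the scaling of libraries cancels. The log2 ratio of G0s2 to Pnpla2 was -2.44, -3.45 and -4.34 in Atf4WT iWAT at RT and -2.93, -3.25 and -2.49 after cold exposure. The Atf4AKO libraries gave -2.50, -3.01 and -4.37 at RT and -3.03, -2.98 and -3.60 after cold exposure. The groups overlapped throughout. The difference between cold exposure and RT was 0.52 in Atf4WT and 0.09 in Atf4AKO iWAT, with p = 0.5 and p = 0.9 in two-sided exact permutation tests, in which 3 libraries against 3 cannot go below 0.1.

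Lipe (chr7:25379527-25398710, minus strand) had 69862, 66376 and 57022 normalized counts in Atf4WT iWAT at RT and 59446, 62917 and 41235 after cold exposure. Its values in Atf4AKO iWAT were 69342, 76618 and 63804 at RT and 64481, 57059 and 61268 after cold exposure. The groups overlapped in both genotypes, and cold-exposed Atf4WT replicate 2 was the lowest of the 12 libraries. The log2 fold changes were -0.26 (95% confidence interval -0.64 to 0.12, adjusted p = 0.272) and -0.20 (-0.57 to 0.18, adjusted p = 0.425).

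Mgll (chr6:88724412-88828360, plus strand) ranged from 31301 to 46954 normalized counts over the 12 libraries, with 41072, 42679 and 32841 in Atf4WT iWAT at RT and 38682, 40359 and 31301 after cold exposure. The Atf4AKO libraries had 36189, 38977 and 34322 at RT and 38783, 46954 and 38129 after cold exposure, which also overlapped. Neither log2 fold change passed the test (-0.08, adjusted p = 0.711, and 0.17, adjusted p = 0.405). The confidence intervals of Lipe and Mgll exclude a rise or a fall of 2-fold in either genotype.

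Plin5 (chr17:56111601-56117596, minus strand), among the 4 perilipins followed here, had the lowest level and the largest change. It had 870, 667 and 470 normalized counts in Atf4WT iWAT at RT and 3226, 3191 and 2849 after cold exposure. In Atf4AKO iWAT it had 836, 922 and 640 at RT and 2994, 4424 and 3819 after cold exposure. All 6 cold-exposed libraries were above all 6 RT libraries. The log2 fold change was 2.25 ± 0.22 (SE, adjusted p = 7.86e-05) in Atf4WT and 2.23 ± 0.22 (adjusted p = 8.65e-05) in Atf4AKO iWAT. Skeletal muscle, which also expresses Plin5, was most visible in Atf4WT replicate 2 at RT, where Plin5 was the lowest of the 12 libraries. Without that library the limma change was 2.02 (adjusted p = 0.000251). Muscle markers were also raised in cold-exposed Atf4WT replicate 0 and Atf4AKO replicate 1, where Plin5 was the highest of each group. Leaving out any 1 library gave 2.02 to 2.46 in Atf4WT and 2.07 to 2.38 in Atf4AKO iWAT. A contribution of muscle was not tested.

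Plin2 (chr4:86648386-86670060, minus strand) had 16301, 15105 and 11750 normalized counts in Atf4WT iWAT at RT and 42695, 37562 and 30724 after cold exposure. Its values in Atf4AKO iWAT were 21003, 19656 and 13790 at RT and 45061, 37068 and 37524 after cold exposure. Again no cold-exposed library reached down to an RT library. The log2 fold change was 1.36 ± 0.19 (adjusted p = 0.000575) in Atf4WT and 1.15 ± 0.19 (adjusted p = 0.00163) in Atf4AKO iWAT. Macrophages also express Plin2, and their summed markers were at 28564 to 51010 normalized counts at RT and at 6490 to 38536 after cold exposure, with the 2 lowest values in replicate 1 of each cold-exposed group. Without cold-exposed replicate 1 the log2 fold change was 1.35 in Atf4WT and 1.20 in Atf4AKO iWAT. A contribution of macrophages was not tested.

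Plin4 (chr17:56100591-56109803, minus strand), whose gene lies 1797 bases beyond Plin5 on the same strand, moved the other way in Atf4WT iWAT. It had 89211, 76725 and 78825 normalized counts at RT and 60829, 59162 and 34284 after cold exposure, without overlap. In Atf4AKO iWAT it had 63306, 79872 and 76699 at RT and 69528, 59306 and 53113 after cold exposure, and the groups overlapped. The log2 fold change was -0.71 ± 0.22 (adjusted p = 0.0285) in Atf4WT and -0.27 ± 0.22 (adjusted p = 0.375) in Atf4AKO iWAT, and these changes were not shown to differ (difference 0.43, 95% confidence interval -0.24 to 1.11, adjusted p = 0.975). The call in Atf4WT iWAT was lost without cold-exposed replicate 2, which had the lowest Plin4 value and the highest lymphocyte score of the 12 libraries (log2 fold change -0.44, adjusted p = 0.0832). It was also lost without any 1 of the 3 RT replicates (adjusted p = 0.0899, 0.0577 and 0.0533 without replicates 0, 1 and 2), with the lymphocyte score as a covariate (-0.44, adjusted p = 0.435) and in a fit of the compared groups alone (adjusted p = 0.0727).

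Plin1 (chr7:79720218-79732903, minus strand) had 57417, 52267 and 43996 normalized counts in Atf4WT iWAT at RT and 45633, 43795 and 39417 after cold exposure. The Atf4AKO libraries held 51198, 59306 and 48304 at RT and 51473, 52574 and 46696 after cold exposure. The RT and cold-exposed libraries overlapped in both genotypes, and Plin1 had a log2 fold change of -0.25 in Atf4WT (95% confidence interval -0.55 to 0.05, adjusted p = 0.187) and of -0.07 in Atf4AKO iWAT (-0.37 to 0.23, adjusted p = 0.73). Cidec (chr6:113424634-113435760, minus strand) had 71012, 71472 and 56209 normalized counts in Atf4WT iWAT at RT and 71598, 78591 and 51065 after cold exposure. The Atf4AKO libraries held 62552, 89556 and 69627 at RT and 63120, 90366 and 69136 after cold exposure. The means of Cidec before and after cold exposure were nearly equal, and its log2 fold changes were 0.00 and 0.01, with 95% confidence intervals of -0.47 to 0.48 in both genotypes.

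**Figure D2:**
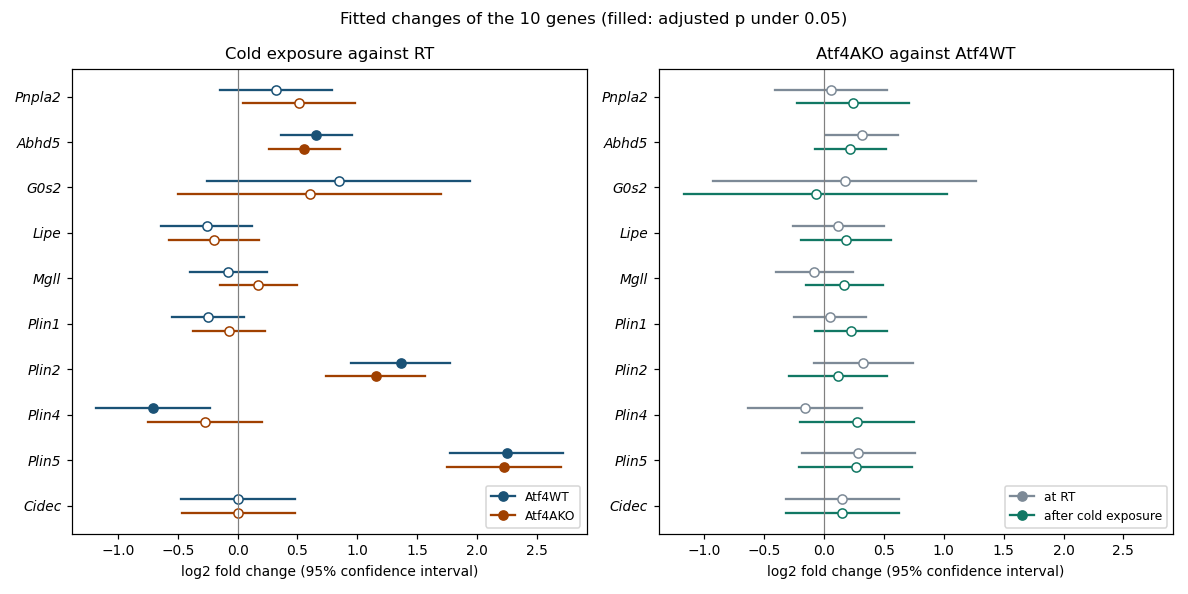
Log2 fold changes (points) with 95% confidence intervals (lines) of the 10 genes from limma, for cold exposure against RT in each genotype (left) and Atf4AKO against Atf4WT at RT and after cold exposure (right); filled points have an adjusted p-value under 0.05. The points of Plin5, Plin2 and Abhd5 are filled in both genotypes on the left, that of Plin4 in Atf4WT alone, and no point is filled on the right.

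The calls of Plin5, Plin2 and Abhd5 were kept in both genotypes under each alternative fit that was run, while by the DEG rule Abhd5 in Atf4AKO iWAT was not taken in. With the lymphocyte score as a covariate, the log2 fold changes in Atf4WT iWAT were 2.93, 1.76 and 1.00, and in Atf4AKO iWAT 2.11, 1.09 and 0.50. The scores of the Atf4WT libraries did not overlap between RT (3.75 to 6.94) and cold exposure (7.07 to 9.60). This fit therefore cannot cleanly separate the score from cold exposure in Atf4WT iWAT. Whether other cells contributed to these changes was not tested further. The libraries of the RT and cold-exposed groups did not overlap for 4 of the 10 genes in Atf4WT iWAT (Abhd5, Plin2, Plin4 and Plin5), where this held for 46.8% of all genes. They did not overlap for 4 genes in Atf4AKO iWAT (Pnpla2, Abhd5, Plin2 and Plin5), where it held for 41.7%. Neither share of the members was above that of all genes.

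Within a group the members tended to be low in the same library. In Atf4WT iWAT replicate 2 had the lowest value of 9 of the 10 genes at RT (all but Plin4) and of 9 of the 10 genes after cold exposure (all but G0s2, which was highest there). The summed adipocyte markers were the lowest of their group in both of these libraries, which also had the highest lymphocyte scores of their groups, 6.94 and 9.60. In Atf4AKO iWAT replicate 2 was the lowest RT library for 7 genes, and after cold exposure replicates 0 and 2 were the lowest for 4 genes each. The share of these shifts that comes from other cells in the tissue was not tested.

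To compare levels between genes, values were divided by the summed length of the exons of each gene. At RT Cidec led with 37738 ± 4947 normalized counts per kb (SD, n = 3) in Atf4WT iWAT, followed by Pnpla2 with 33059 ± 1699, and the libraries of these 2 genes overlapped. The next members, Plin4, Plin1, Lipe, G0s2, Mgll and Plin2, lay between 14123 and 7619 per kb, with overlap between each gene and the next. Abhd5 at 1640 ± 126 and Plin5 at 321 ± 95.8 came last, each below every library of the gene before it. After cold exposure the coactivator was thus still far below its lipase, with 2587 ± 191 per kb for Abhd5 against 41914 ± 8183 for Pnpla2 in Atf4WT iWAT and 3019 ± 384 against 49276 ± 7035 in Atf4AKO iWAT. Plin2 moved from rank 8 to rank 3 in Atf4WT iWAT and from rank 7 to rank 3 in Atf4AKO iWAT, whereas Plin4 moved from rank 3 and from rank 5 to rank 7. In all 4 groups the libraries of Plin4 overlapped those of the gene ranked next below it. The change of Plin4 in Atf4AKO iWAT was not called.

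The make-up of the perilipin transcripts differed with temperature. As a share of the reads per kb of Plin1 to Plin5 together, Plin2 made up 21.2% ± 1.52 (SD, n = 3) at RT and 47.3% ± 1.21 after cold exposure in Atf4WT iWAT, and 26.0% ± 4.56 and 45.1% ± 2.18 in Atf4AKO iWAT. The share of Plin4 was 39.6% ± 2.86 at RT and 21.2% ± 3.33 after cold exposure in Atf4WT iWAT, and 34.5% ± 4.52 and 22.4% ± 1.20 in Atf4AKO iWAT. The Plin1 share went from 36.9% to 27.0% in Atf4WT and from 37.1% to 27.8% in Atf4AKO iWAT. Shares of a sum are tied together, so a larger share of Plin2 lowers the others. By limma on the normalized counts Plin1 was not called in either genotype (log2 fold change -0.25 and -0.07). Nor was Plin4 in Atf4AKO iWAT (-0.27). Plin5 remained a minor species, at 0.883% and 1.03% at RT and 3.61% and 3.88% after cold exposure. At RT Plin1 and Plin4 were the leading perilipin transcripts, except in Atf4AKO replicate 0, where Plin2 (30.7%) stood just above Plin4 (30.2%). After cold exposure Plin2 led in all 6 libraries, at 42.6% to 48.2%.

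**Figure D3:**
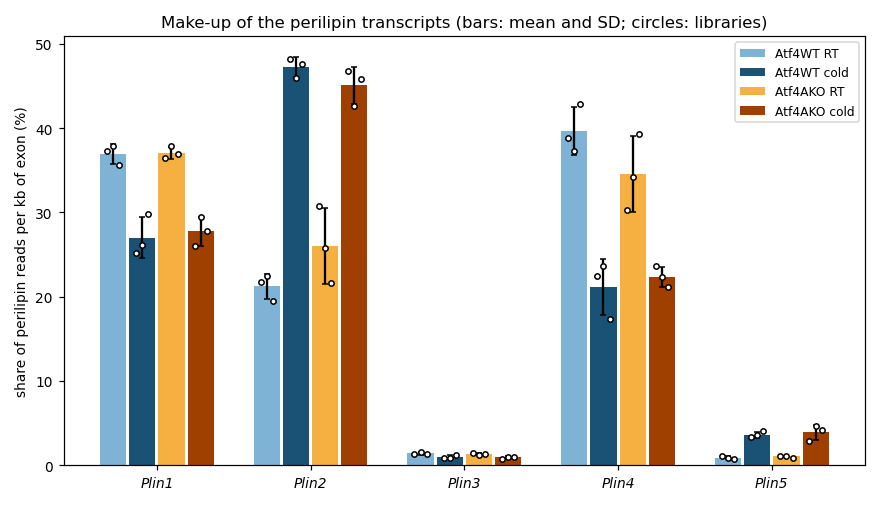
Share (%) of each perilipin gene in the summed reads per kb of exon of Plin1 to Plin5, with bars for the mean of 3 libraries, error bars for the SD and circles for the libraries. The Plin2 share is 19.5% to 30.7% in the RT libraries and 42.6% to 48.2% in the cold-exposed libraries, while the Plin4 share is 30.2% to 42.8% and 17.4% to 23.6%.

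Ratios of perilipins within a library do not depend on the scaling of libraries. The log2 ratio of Plin2 to Plin1 was -1.82, -1.79 and -1.90 in Atf4WT iWAT at RT and -0.10, -0.22 and -0.36 after cold exposure. The Atf4AKO libraries gave -1.29, -1.59 and -1.81 at RT and -0.19, -0.50 and -0.32 after cold exposure. The groups did not overlap in either genotype, and the differences of 1.61 and 1.23 had p = 0.1, the smallest that an exact permutation test of 3 against 3 libraries can give (adjusted p = 0.225 over 9 ratio tests). The log2 ratio of Plin5 to Plin1 was 2.50 higher after cold exposure in Atf4WT and 2.30 higher in Atf4AKO iWAT, also without overlap and with p = 0.1 in the exact permutation test.

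Promoters were examined because Abhd5, Plin2 and Plin5 moved together in both genotypes. RefSeq (GRCm38.p6) gave 14 start sites for the 10 genes, and 8 short motifs were searched on both strands in the 250 bases before each start, with the expression results already known. The nuclear receptor element AGGTCA was present in 3 of the 14 windows, 1 each of Abhd5, Plin2 and Plin5, and in 14.0% of all 32851 windows of this kind. The stretches that hold it read as follows, 5′ to 3′ on the strand of the gene, with up to 50 bases on each side and the element (or its reverse complement) in capitals.
Abhd5, chr9:122351497-122351602, plus strand: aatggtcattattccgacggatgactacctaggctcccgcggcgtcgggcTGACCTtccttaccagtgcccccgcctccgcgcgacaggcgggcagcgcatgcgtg
Plin2, chr4:86670222-86670309, minus strand: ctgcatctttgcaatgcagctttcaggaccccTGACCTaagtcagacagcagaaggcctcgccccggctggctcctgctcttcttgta
Plin5, chr17:56117663-56117768, minus strand: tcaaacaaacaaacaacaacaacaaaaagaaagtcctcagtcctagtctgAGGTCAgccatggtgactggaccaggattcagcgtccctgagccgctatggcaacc

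The element began 69 bases before the start of Abhd5, 218 before that of Plin2 and 170 before the outer of 2 start sites of Plin5, and the window of the inner start site of Plin5 held none. The repeat bound by PPAR receptors, 2 copies of AGGNCA with 1 base between them, was in no member window and in 0.338% of all windows. Nor did a member window hold the cAMP response element TGACGTCA (1.55% of all windows), the C/EBP-ATF element TGATGNAA (3.45%) or the TATA box TATAAA (12.4%). The C/EBP element TTGCNNAA was in 2 of the 14 windows, of Plin1 and Cidec (9.56% of all windows), the CCAAT box CCAAT in 3, of Plin2, Plin4 and Plin5 (33.8%), and the GC box GGGCGG in 7, of Pnpla2, Lipe, Mgll, Abhd5, G0s2 and Plin5 (32.7%). A match of so few letters describes the sequence and shows neither binding nor its lack.

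Atf4AKO and Atf4WT iWAT were then compared directly. After cold exposure limma called none of the 10 genes (0.0298% of all genes were called). None reached p under 0.05 before adjustment in limma, as 11.7% of all genes did. No member was called by edgeR or DESeq2. Over all genes edgeR called 0 higher and 3 lower of 13404, and DESeq2 29 higher and 562 lower of 14101. No member met the DEG rule, which 6.40% of all genes met. Fitted values were higher in Atf4AKO iWAT for 9 of the 10 genes, from -0.07 for G0s2 to 0.28 for Plin4 on the log2 scale, with a median of 0.20 beside 0.05 over all genes. The 12 adipocyte markers were all higher as well, with a median of 0.22. The libraries of the genotypes did not overlap for Plin1 alone, with 45633, 43795 and 39417 normalized counts in Atf4WT and 51473, 52574 and 46696 in Atf4AKO iWAT (log2 fold change 0.23, 95% confidence interval -0.07 to 0.53, adjusted p = 0.567), which held for 16.5% of all genes. With the lymphocyte score as a covariate every member had a negative value. These comparisons use the same cold-exposed Atf4WT libraries as those above, in which lymphocyte markers were high, and the part of these markers in the direction of the 9 genes was not tested.

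At RT limma called none of the 10 genes either, while it called 0.00746% of all genes. No member was called by edgeR or DESeq2. Over all genes edgeR called 0 higher and 1 lower of 13404, and DESeq2 1 higher and 3 lower of 14101. No member met the DEG rule, which 0.463% of all genes met. Only Abhd5 had an unadjusted p-value under 0.05 (log2 fold change 0.32, 95% confidence interval 0.02 to 0.61, adjusted p = 1.0), and 1.53% of all genes had one. No member was free of overlap between the genotypes, which 6.30% of all genes were. The cold responses of the genotypes were not shown to differ for any member. The differences of the log2 fold changes, Atf4AKO minus Atf4WT, ran from -0.24 for G0s2 to 0.43 for Plin4. Of the members 0 were called by limma, edgeR or DESeq2, and 0 had an unadjusted p-value under 0.05 in limma. Over all genes limma called 0.00%, and 6.92% had such a p-value. With edgeR 0 of 13404 genes were called, and DESeq2 called 3 higher and 125 lower of the 14101 genes it tested. No member met the DEG rule, which 4.63% of all genes met. For Plin5 the difference was -0.02 with a 95% confidence interval of -0.69 to 0.65, for Plin2 -0.21 (-0.79 to 0.37) and for Abhd5 -0.10 (-0.52 to 0.32). A difference of 1.5-fold in either direction thus lies within the interval of Plin5. For Plin2 only a 1.5-fold smaller response in Atf4AKO iWAT does.

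The wider pathway was read from 3 lists with 73 further genes, of which 68 were listed and tested. In Atf4WT iWAT 15 of the 68 were called higher and 12 lower with cold exposure, and in Atf4AKO iWAT 19 were called higher and 9 lower. Over all genes the shares were 17.0% and 14.9% in Atf4WT and 14.8% and 11.0% in Atf4AKO iWAT, and the counts of the lists are given as a description beside them. Those called in both were 14 of the 15 and 19 higher genes and 8 of the 12 and 9 lower genes, and none was called in opposite directions. Among other lipases and cofactors 4 of 14 were called higher in Atf4WT and 5 of 14 in Atf4AKO iWAT, and none lower. The fatty acid-binding protein gene Fabp5 changed by 1.11 and 0.90 on the log2 scale (adjusted p = 0.0042 and 0.0145), the lipase gene Ddhd2 by 0.98 and 0.81, and Abhd6, which encodes a monoglyceride hydrolase, by 0.66 and 0.89. Lpl and Fabp4 are in this list and among the adipocyte markers, and neither was called.

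Of 26 other droplet proteins 6 were called higher and 7 lower in each genotype. The shares over all genes were 17.0% and 14.9% in Atf4WT and 14.8% and 11.0% in Atf4AKO iWAT. Cidea, a relative of Cidec that is typical of thermogenic adipocytes, rose from 3997 to 17852 normalized counts in Atf4WT iWAT and from 4469 to 20626 in Atf4AKO iWAT (log2 fold change 2.16 in both, adjusted p = 8.71e-05 and 8.73e-05), while Cidec did not pass the test. Clstn3, whose adipocyte isoform sits on droplets but was not counted apart, changed by 2.17 and 2.03. The third CIDE gene, Cideb, is in the higher count of both genotypes, but its mean of 8.19 and 6.08 normalized counts at RT was under the filter, which it passed through the cold-exposed libraries alone (26.5 and 24.8), so its call is not read as a change. Called lower were Mettl7a1 (-0.95 and -0.76), the caveolin gene Cav1 (-0.85 and -0.51) and Tmem159 (-0.84 and -0.65), whose protein acts with seipin where droplets form.

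Hormone signalling to lipolysis had 5 genes called higher and 5 lower of 28 in Atf4WT iWAT, and 8 higher and 2 lower in Atf4AKO iWAT. Beside these stand 17.0% and 14.9% of all genes in Atf4WT and 14.8% and 11.0% in Atf4AKO iWAT. Adcy3, an adenylyl cyclase, had log2 fold changes of 1.87 and 2.30, the cAMP phosphodiesterase gene Pde4d 0.72 and 1.29, and Akap1, which anchors protein kinase A at mitochondria, 0.37 and 0.62, all past the threshold. Npr3, the clearance receptor of natriuretic peptides, fell by 2.46 and by 1.47. Adrb3, the main beta-adrenergic receptor gene of mouse adipocytes, fell by 1.04 in Atf4WT iWAT (adjusted p = 0.0163) and had a value of -0.76 in Atf4AKO iWAT (adjusted p = 0.0665). Adora1, an adenosine receptor that restrains lipolysis, fell by 1.09 in Atf4WT iWAT (adjusted p = 0.00723) and had -0.59 in Atf4AKO iWAT (adjusted p = 0.103). With the lymphocyte score as a covariate the calls in Atf4WT iWAT of Abhd6, Mettl7a1, Cav1, Pde4d, Akap1, Npr3, Adora1 and Adrb3 were lost. Calls over all 13404 genes fell as well in that fit, from 2273 higher and 2000 lower to 1363 and 478. Several calls also rested on single libraries. In Atf4WT iWAT that of Adrb3 was lost without RT replicate 2 (-0.89) or cold-exposed replicate 2 (-0.75), and those of Pde4d and Akap1 were each lost when any of 5 of the 6 libraries was left out. In Atf4AKO iWAT that of Fabp5 was lost without RT replicate 2 (0.69), that of Mettl7a1 without RT replicate 1 (-0.63), and those of Npr3 and Cav1 when any of 4 and 5 of the 6 libraries was left out. Adrb3 passed in Atf4AKO iWAT with DESeq2 (-0.78).

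Between the genotypes none of the 68 genes was called with limma or edgeR after cold exposure, 10 had an unadjusted p-value under 0.05 (11.7% of all genes), and DESeq2 called 1 higher and 3 lower, beside 29 and 562 of the 14101 genes it tested. At RT none was called by the 3 tools and 2 had an unadjusted p-value under 0.05 (1.53% of all genes). For the difference of the cold responses none was called and 5 had such a p-value (6.92% of all genes). A further 3 genes, named after their values were seen, lay apart from the others, with a log2 fold change over 0.5 in Atf4WT and under 0 in Atf4AKO iWAT. They were Lpcat2 (1.05 and -0.29), Adra2a (0.90 and -0.58) and Pde4b (0.53 and -0.08), and none of these 6 values passed the threshold. Cold-exposed Atf4WT replicates 0, 1 and 2 had lymphocyte scores of 7.07, 9.12 and 9.60. Their normalized counts were 53.4, 71.8 and 176 for Lpcat2, 32.9, 27.4 and 65.0 for Adra2a, and 289, 343 and 444 for Pde4b. The part of lymphocytes in these values was not tested.

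**Figure D4:**
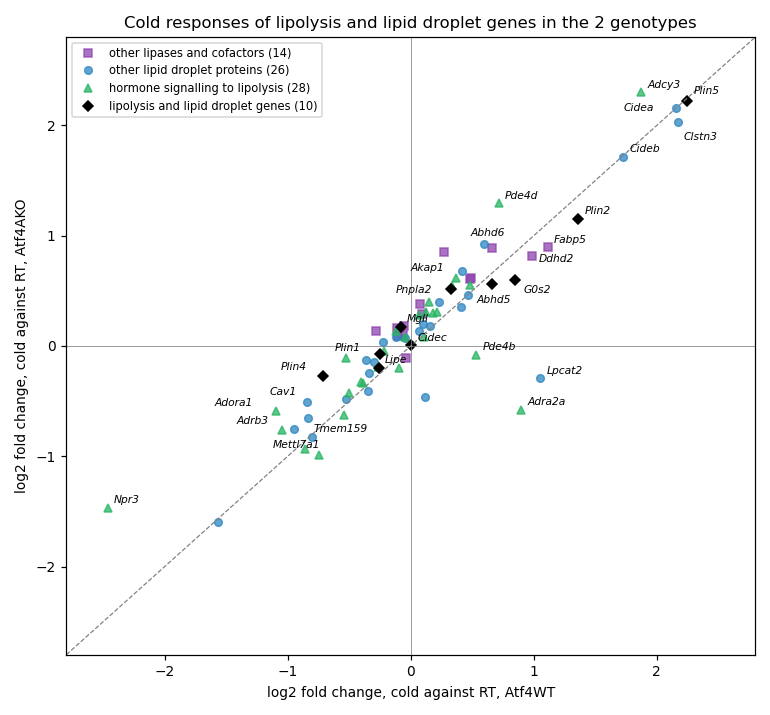
Log2 fold change with cold exposure in Atf4WT (x axis) and Atf4AKO iWAT (y axis) for the 10 genes (black diamonds) and the 68 genes of the 3 other lists (squares, circles and triangles), with a dashed line where both are equal. Plin5, Cidea, Clstn3 and Adcy3 lie near 2 on both axes, and Lpcat2, Adra2a and Pde4b lie right of 0 and below 0.

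The genes most like each member were read from Pearson correlations over the 12 libraries with 11841 genes that had a mean of at least 50 normalized counts. These libraries hold both temperatures and 2 genotypes, so the values describe a shared pattern. Plin5 was closest to Letm1, Chchd10 and Mrps18b (r = 0.99 for each), Plin2 to Txndc11, Psmb5 and Psmc4 (0.99, 0.98 and 0.98), and Abhd5 to Memo1, Ppp6r3 and Pnpla8 (0.98, 0.97 and 0.97). Pnpla2 was closest to Kxd1 (0.97), Lipe to Spg21 (0.97), Mgll to Chchd6 (0.94), Plin1 to Acad8 (0.95), Plin4 to Blcap (0.94) and Cidec to Arl2 (0.96). G0s2 had the weakest closest neighbours, Srebf1, Cptp and Phlda3 (0.92, 0.89 and 0.89).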

How the data were processed

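Polyadenylated RNA of whole iWAT was sequenced in 12 strand-specific libraries, and all columns of values were used. The deposited values are a normalized signal: per the labels and the methods, the authors filtered reads with SOAPnuke, aligned them with STAR (mm10), used featureCounts for unique alignments and divided the counts by DESeq2 size factors. Versions of these tools and the strand setting of the counting are not given in the sources used here. In each library 100% of the values were whole multiples of the smallest one (largest deviation 0.000313 reads, tolerance 0.001). No listed gene lacked a read in any library, so a gene with 0 reads in some library is not analysed here.

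Values were taken as log2(normalized count + 1) and fitted with limma 3.58.1 under R 4.3.3, with 4 group means over all 12 libraries and moderated variances that followed the mean level. Genes had to reach a mean of 10 normalized counts, which kept 13404 and removed 755. Fold changes are on this scale. A gene was called at a Benjamini-Hochberg adjusted p-value under 0.05 over all genes tested. Ratios within a library were compared by two-sided exact permutation tests. Alternatives were pseudocounts of 0.5 and 5, no filter, a filter at 50, only the groups compared, scaling to the 75th percentile or by TMM, leaving out each library, a replicate block, a fit with the lymphocyte score added, and edgeR 4.0.16 (quasi-likelihood) and DESeq2 1.42.0 on the recovered reads. Beside these stood the DEG rule of the study, applied to the limma values. The scripts were tested on simulated data.

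The members, gene lists and tests were chosen with earlier results of these data known. Members and Atf4 were named throughout. Of the other lists, the genes called in either cold comparison with the 3 largest changes in each direction were named, and for each member its closest genes by correlation. Gene positions and exon lengths came from GENCODE M21 (GRCm38, the assembly of mm10) and promoter windows from RefSeq. Python 3.11.15, scipy 1.17.1 and matplotlib 3.10.9 served the remaining steps. Replicates are biological per the labels.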

Additional observations from a re-analysis of the deposited data

How the results depend on the processing

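In Atf4WT iWAT 3 members in place of 4 were called with the lymphocyte score as a covariate, in a fit of the compared groups alone, and without RT replicate 0, 1 or 2 or cold-exposed replicate 2, the lost call being that of Plin4. In Atf4AKO iWAT 4 in place of 3 were called with DESeq2 and 2 by the DEG rule. The number of members called was the same under the other alternatives that were run. Of the other 68 genes, 14 in place of 27 were called in Atf4WT iWAT with the lymphocyte score as a covariate. Over all genes that fit called 1363 higher and 478 lower, in place of 2273 and 2000. Between the genotypes after cold exposure 4 were called with DESeq2, 3 by the DEG rule, and 0 to 2 when 1 library was left out, in place of 0, and for the difference of the cold responses 1 by the DEG rule.

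Whether libraries with the same replicate number belong together was not settled. Of 18 pairs with the same number, 9 had deviations correlated above 0.1 (range -0.19 to 0.39). The correlations ran from -0.18 to 0.10 for replicate 0, from 0.18 to 0.39 for replicate 1 and from -0.19 to 0.37 for replicate 2. With the replicate number as a block 4 and 3 members were called in the cold comparisons and 0 between the genotypes, and of the other genes 29, 32, 1, 0 and 0. Over all 13404 genes this fit called 2550 higher and 2308 lower with cold exposure in Atf4WT and 2243 and 1886 in Atf4AKO iWAT. Between the genotypes after cold exposure it called 2 higher and 187 lower, in place of 0 and 4.

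The lymphocyte score was high in cold-exposed Atf4WT libraries and so overlaps with that group. With it as a covariate, values that had not passed the test changed sign. In the cold comparison in Atf4WT iWAT these were Lipe (0.045), Mgll (0.32) and Plin1 (0.072), and in Atf4AKO iWAT Cidec (-0.092). For Atf4AKO against Atf4WT after cold exposure they were Pnpla2 (-0.19), Lipe (-0.19), Mgll (-0.32), Abhd5 (-0.20), Plin1 (-0.16), Plin2 (-0.37), Plin4 (-0.056), Plin5 (-0.58) and Cidec (-0.54). For the difference of the cold responses they were Pnpla2 (-0.22), Lipe (-0.29), Mgll (-0.22), Plin1 (-0.20) and Cidec (-0.66). The cause was not tested.

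Values near 0 changed sign under other settings. Cidec had -0.022 in Atf4WT and -0.055 in Atf4AKO iWAT with 75th percentile scaling, -0.015 and -0.031 with TMM scaling, and for the difference of the cold responses -0.034, -0.016 and, with DESeq2, -0.013. The difference for Plin5 was 0.037 with edgeR and 0.022 with DESeq2.

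Leaving out 1 library at a time changed the sign of these values, none of which had passed the test. For cold exposure in Atf4WT iWAT Mgll ran from -0.20 to 0.033 and Cidec from -0.12 to 0.19, and in Atf4AKO iWAT Plin1 from -0.13 to 0.013 and Cidec from -0.15 to 0.15. After cold exposure the genotype difference ran from -0.0070 to 0.30 for Lipe, -0.30 to 0.17 for G0s2, -0.012 to 0.23 for Plin2 and -0.033 to 0.28 for Cidec, and at RT from -0.10 to 0.23 for Pnpla2, -0.34 to 0.68 for G0s2 and -0.055 to 0.14 for Plin1. The difference of the cold responses ran from -0.13 to 0.18 for Lipe, -0.24 to 0.016 for Abhd5, -0.76 to 0.26 for G0s2, -0.23 to 0.21 for Plin5 and -0.18 to 0.15 for Cidec. The ratio of G0s2 to Pnpla2 in Atf4AKO iWAT ran from -0.45 to 0.48 with cold exposure, and that of Plin5 to Plin1 between the cold-exposed genotypes from -0.061 to 0.21. With 3 libraries in a group, counting error was small beside the spread between replicates.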
